A study of Homo sapiens with 11 samples.

Results

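The T-cell receptor signal transducers are the kinases, adaptors, enzymes, transcription factors and co-receptors that carry a signal from the engaged receptor into the T-cell. A list of 35 genes was fixed for them, and 34 were read from the arrays, of 19775 genes with a single symbol in all, while GRAP2 is not analysed here. The 34 genes had 109 probe sets between them, and the one brightest on average stood for its gene. The data came from 11 established cell lines of T-cell acute lymphoblastic leukemia (T-ALL), each hybridized to 1 HG U133 Plus 2.0 array. In the NKL-positive group, in which NKL-subclass homeobox genes are switched on, were JURKAT, PEER, LOUCY, HPB-ALL, CCRF-CEM and ALL-SIL (6 lines). In the NKL-negative group were SUP-T1, CML-T1 and the MOLT-4, MOLT-16 and MOLT-14 lines (5 lines). The labels name no treatment, time or engineered allele for any of them. Each line descends from the cells of a single patient and was measured once, so the line is the replicate and a value in a single line carries no error of its own. An array measured the RNA of a whole culture, so fewer cells with a transcript and less of it per cell cannot be told apart.

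In a normal T-cell, LCK phosphorylates the chains of the receptor complex, ZAP70 docks there and phosphorylates the scaffold LAT, and LCP2 (SLP-76) joins LAT to bring in PLCG1 and the VAV exchange factors. The signal then splits into a calcium arm, in which calcineurin sends NFAT factors to the nucleus, a RAS arm opened by RASGRP1 and SOS1, and an NF-kappaB arm that runs from PRKCQ to BCL10 and MALT1. CBL, CBLB, PTPN6 and UBASH3A restrain the response, and CD28, ICOS and CTLA4 tune it from the cell surface.

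All values below are RMA values on the log2 scale, on which a difference of 1 is a doubling, and they are compared between lines within a gene, not between genes. The median of an array lay between 4.63 and 4.76 and served as the level under which a gene was taken as not above background. Of 9 T-lineage markers listed, 8 were measured. The receptor chains CD3D (12.64 to 13.44), CD3E (9.19 to 10.69), CD3G (8.11 to 11.13) and CD247 (9.26 to 10.99) were above the array median in every line. So were CD5 (7.18 to 8.87) and CD7 (7.09 to 11.46). CD2 was above it in only 7 lines and CD28 in 9. Added poly-A control RNAs read between 5.82 and 9.38 in 8 arrays but between 2.99 and 3.18 in those of MOLT-16, CML-T1 and HPB-ALL, and the part of this in the values of these 3 lines was not tested. The ACTB control, 3′ minus 5′ probe sets on the log2 scale, a sign of RNA quality, was 0.17 in LOUCY, 0.40 in PEER, 0.47 in CCRF-CEM, 0.52 in JURKAT, 0.56 in ALL-SIL and 0.94 in HPB-ALL, and 0.43 in MOLT-14, 0.83 in SUP-T1, 0.95 in MOLT-16, 1.02 in CML-T1 and 1.17 in MOLT-4. It was thus 0.83 or more in 4 of 5 NKL-negative lines, SUP-T1 and MOLT-4 among them, but in 1 of 6 NKL-positive lines, and its part in the losses and group differences was not tested.

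The core of the pathway was present in every line. Of the 34 transducers, 26 lay above the array median in all 11 lines, and the other 8 missed it in at least 1 line. The kinase LCK ranged only from 10.73 in LOUCY to 12.22 in JURKAT, and ZAP70 from 9.30 in CML-T1 to 10.77 in HPB-ALL. FYN, another SRC-family kinase of T-cells, spread more widely, from 8.57 in PEER to 11.71 in CML-T1. TEC, a cytoplasmic tyrosine kinase, stayed low, between 3.51 in CML-T1 and 6.44 in LOUCY, and was above the array median in 6 lines.

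All 6 adaptors measured were above the array median in every line. LAT, the membrane scaffold, ranged from 8.31 in PEER to 10.91 in MOLT-16, and LCP2 from 7.08 in SUP-T1 to 11.05 in MOLT-16. GRB2, which carries SOS1 to the membrane, lay between 9.04 and 10.60, and NCK1, which links LCP2 to the actin skeleton, between 8.53 and 9.68. These were among the steadier transducers, with an SD over lines of 0.51 for GRB2 and 0.34 for NCK1. TRAT1, which steadies the receptor at the surface, ranged from 6.93 in JURKAT to 9.73 in MOLT-14, and SH2D2A, an adaptor that binds LCK, from 6.36 in CCRF-CEM to 9.50 in MOLT-16.

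Among the effectors, PLCG1, the lipase that opens the calcium arm, lay between 7.73 in PEER and 9.40 in MOLT-14. VAV1, the exchange factor found mainly in blood cells, lay between 7.97 in SUP-T1 and 9.47 in LOUCY, and PAK2, a kinase downstream of it, between 8.73 in SUP-T1 and 10.61 in JURKAT. SOS1, the general RAS exchange factor, ranged from 6.77 in HPB-ALL to 9.15 in MOLT-16. In the NF-kappaB arm PRKCQ ranged from 8.0 in HPB-ALL to 10.41 in LOUCY and BCL10 from 8.33 in MOLT-14 to 9.70 in HPB-ALL. All 6 of these genes stayed above the array median in every line. The same held for the calcineurin subunits PPP3CA (7.95 to 10.28) and PPP3CB (8.76 to 10.01), for NFATC3 (8.63 to 10.35), for the ubiquitin ligases CBL (8.60 to 9.97) and CBLB (6.51 to 8.70), and for the surface protein CD6 (8.38 to 9.39).

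The transducers varied more between lines than an average gene. Their median SD over the 11 lines was 0.79, against 0.51 over all genes. Restricted to genes whose median lay at least 2 log2 units over the array medians, the median SD was 0.77 for 31 transducers and 0.51 for 7854 genes. ICOS had the widest spread of the 34 with an SD of 2.29, followed by CD28 with 2.17 and VAV3 with 1.85, whereas CD6 had the smallest with 0.30. The lines behind the widest spreads are described next.

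**Figure D1:**
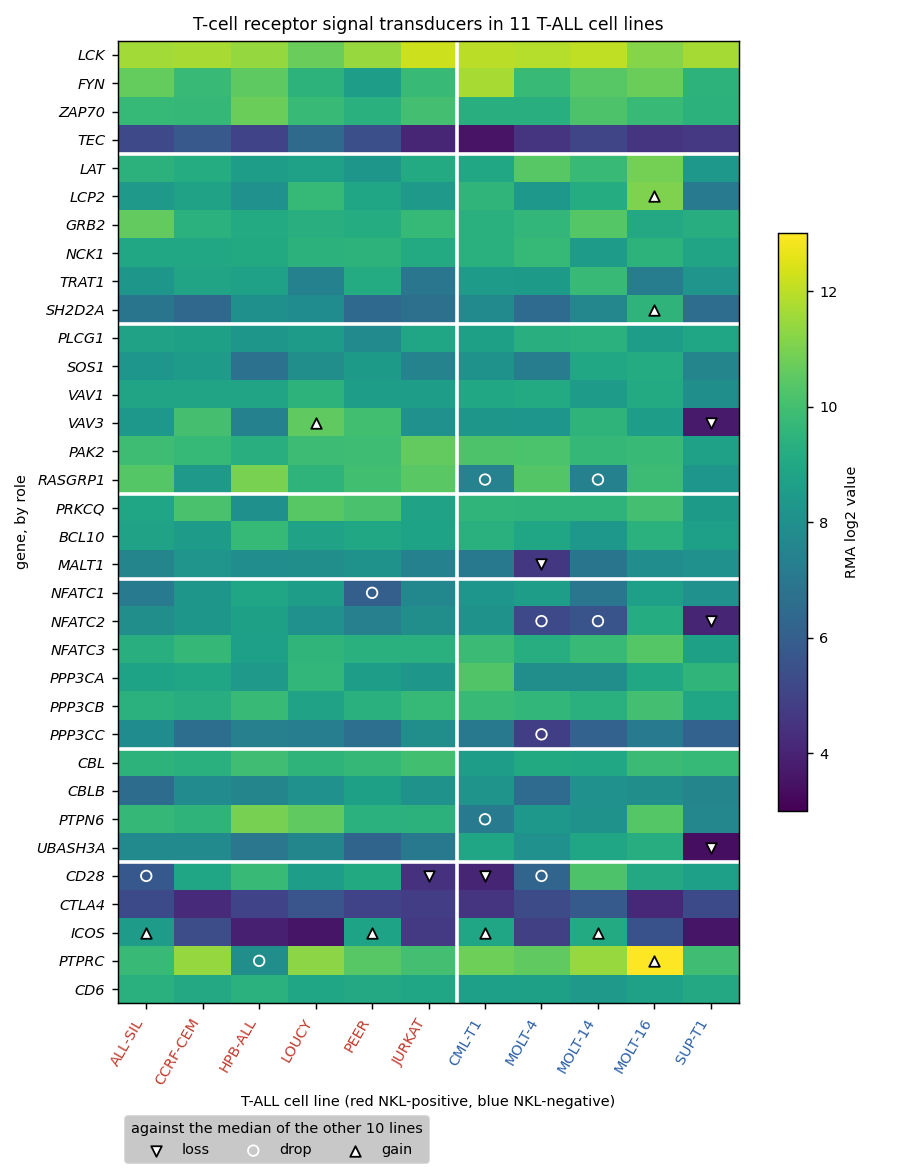
RMA log2 values of the 34 transducers (rows, grouped by role) in the 11 lines (columns, NKL-positive names in red, NKL-negative names in blue), with darker colours for lower values. Downward triangles mark the 6 losses, open circles the 10 drops that stay above the array median and upward triangles the 8 gains, and 3 of the 6 losses stand in the SUP-T1 column.

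A transducer was called lost in a line where it lay at least 2 log2 units below the median of the other 10 lines and at or below the median of that array. Of 374 combinations of gene and line, 6 met this rule, in 5 genes and 4 lines. These 5 genes are 14.7% of the 34 transducers, beside 7.1% of all 19775 genes with a loss in at least 1 line. Among the genes with a median at least 2 log2 units over the array medians, for which a loss could be seen, 5 of 31 transducers (16.1%) and 7.82% of all such genes had one. The losses were VAV3, UBASH3A and NFATC2 in SUP-T1, MALT1 in MOLT-4, and CD28 in CML-T1 and in JURKAT. No array was repeated, so a value in a single line can be set only against the spread of the other lines.

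VAV3, an exchange factor related to VAV1, showed the largest loss outside the co-receptors. It read 8.32 in ALL-SIL, 10.05 in CCRF-CEM, 7.40 in HPB-ALL, 10.56 in LOUCY, 9.99 in PEER, 8.04 in JURKAT, 8.28 in CML-T1, 8.24 in MOLT-4, 9.51 in MOLT-14, 8.55 in MOLT-16 and 3.73 in SUP-T1. SUP-T1 alone fell to background, and the next lowest line, HPB-ALL, was well above it. The gap to the median of the other lines was 4.71, and all 3 VAV3 probe sets were past the gap of 2 in SUP-T1, where they read 3.73, 3.17 and 2.97. The dimmest of these probe sets was also under the array median in HPB-ALL (4.28), JURKAT (4.59) and MOLT-4 (3.67).

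UBASH3A, a T-cell protein (STS-2) that dampens receptor signalling, was lost in the same line. Its values were 7.78 in ALL-SIL, 7.79 in CCRF-CEM, 6.96 in HPB-ALL, 7.59 in LOUCY, 6.21 in PEER, 7.03 in JURKAT, 8.89 in CML-T1, 8.04 in MOLT-4, 8.88 in MOLT-14, 9.23 in MOLT-16 and 3.39 in SUP-T1. The other NKL-negative lines were the 4 highest of all, so that the NKL-negative group held both ends of the range. The gene has a single probe set, and its value in SUP-T1 was the only one of the 6 losses that lay under the 25th percentile of its array, 3.55 there.

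NFATC2 (NFAT1), a calcium-driven transcription factor of cytokine genes, was low in several NKL-negative lines. It read 7.95 in ALL-SIL, 8.30 in CCRF-CEM, 8.70 in HPB-ALL, 8.05 in LOUCY, 7.36 in PEER, 7.96 in JURKAT, 8.08 in CML-T1, 5.22 in MOLT-4, 5.58 in MOLT-14, 9.20 in MOLT-16 and 4.03 in SUP-T1. The 6 NKL-positive lines sat close together, while the NKL-negative lines split into CML-T1 and MOLT-16 at or above them and MOLT-4, MOLT-14 and SUP-T1 far below. SUP-T1 fell to background, 3.98 under the median of the other lines, and the others kept a value above the array median. A second probe set showed the same 3 low lines, at 5.90 in MOLT-4, 5.68 in MOLT-14 and 3.02 in SUP-T1 against 7.22 to 8.74 elsewhere. The last of them, which was dim throughout at 3.92 to 5.47, did not separate them.

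MALT1, a protease and scaffold that works with BCL10, was lost in MOLT-4. The values were 7.57 in ALL-SIL, 8.21 in CCRF-CEM, 7.90 in HPB-ALL, 7.94 in LOUCY, 8.10 in PEER, 7.38 in JURKAT, 7.06 in CML-T1, 4.64 in MOLT-4, 6.89 in MOLT-14, 7.90 in MOLT-16 and 8.05 in SUP-T1. MOLT-4 lay 3.26 under the median of the others and just at its array median of 4.71, and the remaining lines were within a narrow band. The other MALT1 probe sets read 3.97 and 5.15 in MOLT-4, both past the gap of 2, although the latter stayed above the array median. BCL10, the partner of MALT1, was kept in MOLT-4 at 8.92.

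CD28, the main costimulatory receptor, had the second widest spread. It read 5.75 in ALL-SIL, 8.87 in CCRF-CEM, 9.74 in HPB-ALL, 8.57 in LOUCY, 9.07 in PEER, 4.44 in JURKAT, 4.02 in CML-T1, 6.28 in MOLT-4, 10.19 in MOLT-14, 9.03 in MOLT-16 and 8.66 in SUP-T1. CML-T1 and JURKAT were at background, ALL-SIL and MOLT-4 lay between, and the remaining 7 lines were high, with both groups present at each level. All 3 CD28 probe sets were past the gap of 2 in each of these 4 lines. In CML-T1 they read 4.02, 3.12 and 3.45, and in JURKAT 4.44, 4.08 and 3.40. The middle position of the other low lines depended on the probe set, since they read 5.75, 5.31 and 3.89 in ALL-SIL and 6.28, 4.58 and 3.32 in MOLT-4, where the last probe set was as low as in CML-T1 and JURKAT. The CML-T1 array is one of the 3 without poly-A signal, whose part in its CD28 value was not tested, while the JURKAT array had that signal.

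**Figure D2:**
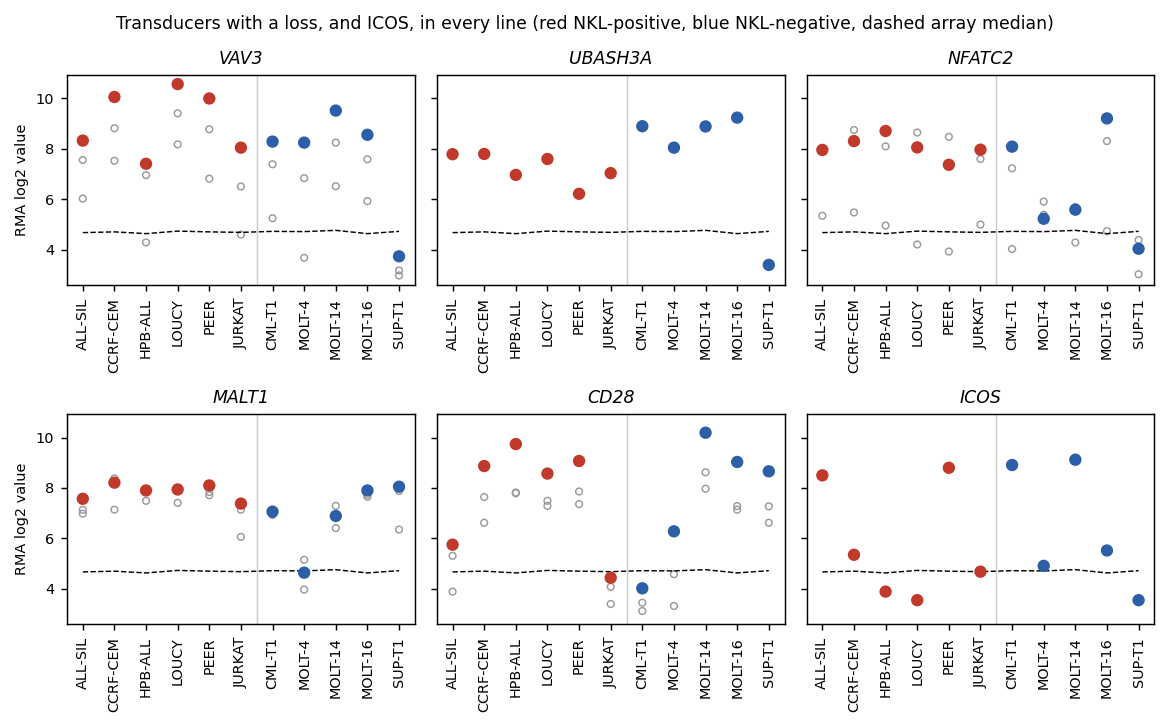
RMA log2 values of the 5 transducers with a loss and of ICOS in each line, with filled points for the probe set used (red NKL-positive, blue NKL-negative), small open points for the other probe sets of the gene whose median over lines is above the array median, and a dashed line at the array median. Of the filled points, those of VAV3, UBASH3A and NFATC2 sit under the dashed line in SUP-T1 only, that of MALT1 in MOLT-4 only, and those of CD28 in CML-T1 and JURKAT, while some open points lie under it in further lines.

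The promoters of the genes with a loss are shown, of which VAV3 and NFATC2 were lost in the same line. They were taken from RefSeq on build GRCh38.p14, 5′ to 3′ on the strand of the gene, and end at the base before the start of the transcript. Capitals mark matches, on either strand, to GATA, to TGTGGT (the core bound by RUNX factors) and to CANNTG (the E-box), of which no pair overlapped. VAV3 is shown from chr1:107688500-107688749 on the minus strand, NFATC2 from chr20:51562840-51563089 on the minus strand, MALT1 from chr18:58671215-58671464 on the plus strand and CD28 from chr2:203706389-203706481 on the plus strand. The VAV3 window belongs to an internal start, 276681 bases from the outermost start of the gene, and the CD28 window holds only the 93 bases before its outermost start. UBASH3A has no entry.
VAV3: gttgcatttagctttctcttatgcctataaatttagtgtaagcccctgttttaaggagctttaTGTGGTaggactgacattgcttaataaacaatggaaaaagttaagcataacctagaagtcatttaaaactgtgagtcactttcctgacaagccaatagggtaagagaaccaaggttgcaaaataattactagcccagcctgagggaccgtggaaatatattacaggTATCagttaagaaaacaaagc
NFATC2: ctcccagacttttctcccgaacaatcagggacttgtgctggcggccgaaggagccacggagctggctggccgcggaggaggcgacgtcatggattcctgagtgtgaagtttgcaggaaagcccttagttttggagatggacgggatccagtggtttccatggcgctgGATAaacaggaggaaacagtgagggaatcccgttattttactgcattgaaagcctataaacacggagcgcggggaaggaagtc
MALT1: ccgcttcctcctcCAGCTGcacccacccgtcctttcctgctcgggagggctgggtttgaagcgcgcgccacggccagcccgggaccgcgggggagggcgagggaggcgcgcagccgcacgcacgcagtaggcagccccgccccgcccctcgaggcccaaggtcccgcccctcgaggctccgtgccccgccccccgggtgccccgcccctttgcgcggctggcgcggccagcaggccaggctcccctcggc
CD28: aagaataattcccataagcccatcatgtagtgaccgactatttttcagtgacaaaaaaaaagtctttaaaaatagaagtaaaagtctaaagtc

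The 4 windows had little in common. MALT1 was rich in CpG, with 30 CpG pairs and 78.8% GC, NFATC2 held 14 at 54.8% GC, and VAV3 held 1 at 37.2% GC. CD28 held 1 at 30.1% GC, but over only 93 bases. GATA occurred once in VAV3 and once in NFATC2, against 45.6% of all 35116 windows of 250 bases. TGTGGT occurred once in VAV3, against 11% of windows, and CANNTG once in MALT1, against 61.8%. The shorter CD28 window held no match. At its length of 93 bases, 24.3% of windows held GATA, 4.33% TGTGGT and 31.1% CANNTG. A match is a description of the letters and not a binding site.

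Below the level of a loss, 10 values fell 2 or more log2 units under the median of the other lines but stayed above the array median. Such a drop was seen in 7 transducers (20.6%), beside 3.6% of all genes. Most genes are too low to show one, and among those with a median at least 2 log2 units over the array medians it was seen in 7 of 31 transducers (22.6%) and in 8.81% of genes. They included NFATC2 in MOLT-4 and MOLT-14 and CD28 in ALL-SIL and MOLT-4, given above. The other 6 concerned RASGRP1, PTPN6, PTPRC, PPP3CC and NFATC1.

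RASGRP1, the RAS exchange factor that diacylglycerol recruits, read 10.35 in ALL-SIL, 8.36 in CCRF-CEM, 10.98 in HPB-ALL, 9.50 in LOUCY, 9.99 in PEER, 10.45 in JURKAT, 7.45 in CML-T1, 10.33 in MOLT-4, 7.38 in MOLT-14, 9.86 in MOLT-16 and 8.25 in SUP-T1. CML-T1 and MOLT-14 were the low lines, by 2.48 and 2.55, and the groups overlapped. PTPN6 (SHP-1), a phosphatase that reverses the work of LCK, read 9.65 in ALL-SIL, 9.50 in CCRF-CEM, 10.95 in HPB-ALL, 10.54 in LOUCY, 9.39 in PEER, 9.42 in JURKAT, 7.14 in CML-T1, 8.32 in MOLT-4, 8.10 in MOLT-14, 10.37 in MOLT-16 and 7.61 in SUP-T1. Among the NKL-negative lines MOLT-16 alone reached the values of the NKL-positive lines, and only CML-T1 was past the gap, at 2.32. RASGRP1 and PTPN6 each have a single probe set. The part of the missing poly-A signal of CML-T1 in its drops of both genes was not tested.

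PTPRC (CD45), the surface phosphatase that keeps LCK ready for use, had both a drop and a gain. It read 9.79 in ALL-SIL, 11.42 in CCRF-CEM, 7.96 in HPB-ALL, 11.28 in LOUCY, 10.39 in PEER, 10.02 in JURKAT, 10.79 in CML-T1, 10.54 in MOLT-4, 11.46 in MOLT-14, 13.11 in MOLT-16 and 9.92 in SUP-T1. HPB-ALL was lowest by 2.71, and all 4 PTPRC probe sets with a median above background were past the gap there, at 7.96, 7.65, 8.16 and 3.06. The array of HPB-ALL is among the 3 without poly-A signal, and the part of that in this value was not tested. MOLT-16 was 2.65 above the others, with 2 of these 4 probe sets past the gap.

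PPP3CC, the gamma form of the catalytic subunit of calcineurin, was lowest in MOLT-4 at 4.84, against 6.13 to 7.95 in the other lines. Of its 2 probe sets above background only the one used was past the gap. The other read 5.30 in MOLT-4, 5.24 in SUP-T1 and 4.52 in MOLT-14, against 6.58 to 7.97 elsewhere. It was thus lowest in MOLT-14, under the array median of 4.76 there, and the low line of PPP3CC depends on the probe set. NFATC1 was lowest in PEER at 6.02, against 6.94 to 8.87 elsewhere, but of its 4 probe sets above background 3 pointed down in PEER and only 1 was past the gap, so that this drop rests on a single probe set. By the probe sets used, MOLT-4 had a drop of both NFATC2 and PPP3CC in the calcium arm, beside the loss of MALT1. PPP3CA was also at its lowest there (7.95, as in MOLT-14), while PPP3CB (9.61) and NFATC3 (9.23) were near their medians.

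Gains were read in the same way, as values over the array median that exceeded the other 10 lines' median by 2 log2 units or more. There were 8 in 5 transducers (14.7%), beside 11.5% of all genes. Near the limit, FYN in CML-T1 missed it at 1.93 and LAT in MOLT-16 at 1.86, while the nearest drops past it were PPP3CC in MOLT-4 at 2.23 and NFATC1 in PEER at 2.25 units below.

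ICOS, an inducible costimulatory receptor with a single probe set, made up 4 of the 8 gains. It read 8.50 in ALL-SIL, 5.35 in CCRF-CEM, 3.89 in HPB-ALL, 3.55 in LOUCY, 8.80 in PEER, 4.68 in JURKAT, 8.91 in CML-T1, 4.91 in MOLT-4, 9.12 in MOLT-14, 5.52 in MOLT-16 and 3.55 in SUP-T1. The 4 high lines, ALL-SIL, PEER, CML-T1 and MOLT-14, came from both groups and stood 3.37 to 3.99 above the median of the rest, and no line lay between 5.52 and 8.50. ICOS and CD28 did not follow each other, since CML-T1 was high for ICOS and lowest for CD28, whereas MOLT-14 was highest for both. CTLA4, the inhibitory relative that lies beside them on chromosome 2, stayed between 4.13 and 5.83, in no line above the 75th percentile of its array.

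MOLT-16 held 3 gains, namely PTPRC as above, LCP2 at 11.05 against 7.08 to 9.69 elsewhere, and SH2D2A at 9.50 against 6.36 to 8.02. For LCP2 all 5 probe sets above background were past the gap, and SH2D2A has a single one. The MOLT-16 array is also one of those without poly-A signal, whose part in these gains was not tested. The remaining gain was VAV3 in LOUCY, 2.26 above the others, close behind which came CCRF-CEM and PEER.

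The lines differed in how many transducers they held at the ends of the range. SUP-T1 was the lowest line for 6 of the 34 and the highest for none. Its transducers lay in the median 0.51 below each gene's mean over all lines, SUP-T1 included, beside 0.02 above for all genes. Of the 31 transducers that could show a loss, 3 (9.68%) were lost in SUP-T1, beside 2.18% of all genes that could show one there. ALL-SIL, in which 2.36% of such genes were lost, lost none of the transducers. MOLT-16 was the highest line for 9 transducers, with a median of 0.40 above the mean over all lines beside -0.09 for all genes. HPB-ALL was highest for 6 and lowest for 4, and CML-T1 lowest for 5 and highest for 2.

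The relatives of the lost genes showed whether a line kept another member of the family. In SUP-T1 VAV1 read 7.97, its lowest value of the 11 lines but far above background, and VAV2 5.43, within its range of 3.34 to 7.59. NFATC1 (8.06) and NFATC3 (8.69) were also kept there. UBASH3B (STS-1), the widely expressed relative of UBASH3A, read 5.22 in SUP-T1, itself a drop from a median of 9.36 over all lines, so that both UBASH3 genes were low in this line. UBASH3B dropped as well in CCRF-CEM (7.19), MOLT-4 (7.16) and JURKAT (6.20), in which UBASH3A was kept. MOLT-14 showed the opposite arrangement, with UBASH3B lost at 3.74 and UBASH3A high at 8.88.

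SUP-T1 also lost 3 relatives of PRKCQ. PRKCH read 3.73 there against 8.64 to 11.44 in the other lines, PRKCB 3.34 and PRKCE 4.54, while PRKCQ itself was kept at 8.45 and PRKCA at 9.45. PRKCB was lost in HPB-ALL too, at 3.59, the line in which PRKCQ was lowest. PRKCE was lost in ALL-SIL as well, at 4.14, lower than in SUP-T1, and had a drop in HPB-ALL at 5.03. Of 29 relatives listed outside the transducers 25 were measured, of which 7 had a loss and 10 a gain in some line, where 7.1% and 11.5% of all genes had one.

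Some relatives that are best known from B-cells and myeloid cells were high in LOUCY or MOLT-16. SYK, the relative of ZAP70, read 8.94 in LOUCY, 6.59 in JURKAT and 6.05 in MOLT-16 and at most 4.78 elsewhere. LYN read 9.88 in LOUCY and 9.09 in MOLT-16 and at most 5.28 elsewhere, and LAT2 read 10.43 and 9.02 in these lines, but also 8.68 in CCRF-CEM and 8.36 in PEER. LOUCY further showed gains of PLCG2 (8.67) and BTK (6.94), and HPB-ALL one of FGR (10.63), a SRC-family kinase. PLCG2 was above the array median in all 11 lines, with 4.83 to 7.69 outside LOUCY, while BTK read at most 5.48 outside LOUCY. Others were not high there, as BLNK read 3.16 in LOUCY and 3.31 in MOLT-16, BLK 3.43 and 4.01, and BTK 4.63 in MOLT-16. ZAP70, LAT, PLCG1 and LCK, their T-cell relatives, stayed above the array median in all of these lines. Of the B-lineage markers 5 of 6 were measured and their mean ranged from 4.52 in MOLT-16 to 6.58 in LOUCY, and of the myeloid markers 4 of 6, with a mean from 3.58 in MOLT-16 to 4.59 in LOUCY. In LOUCY the B-lineage CD79A read 9.25, CD79B 8.25, CD22 6.24, PAX5 5.77 and MS4A1 3.38, and CD79A was highest in CML-T1 at 10.12. The myeloid LYZ was a gain in LOUCY at 5.48 and in CML-T1 at 5.21, whereas MPO, the defining myeloid enzyme, and CD14 were not above the array median in any line. Of 5 erythroid and megakaryocytic markers 4 were measured. Among them ITGA2B was a gain in LOUCY at 7.86, while HBB (5.92), GP9 (5.44) and PF4 (4.97) were not gains there. The part of these markers in the gains of LOUCY was not tested.

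**Figure D3:**
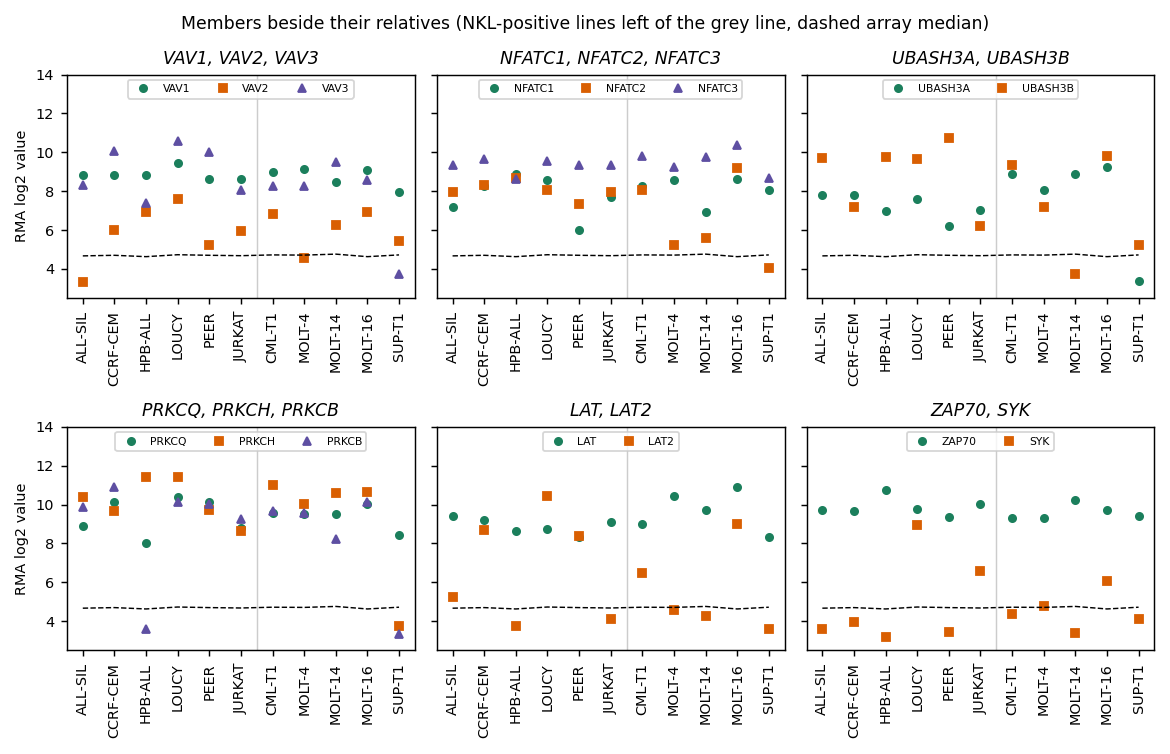
RMA log2 values of 6 families, transducers beside their relatives, in each line, with the NKL-positive lines left of the grey line and a dashed line at the array median. Each symbol is a gene and should be followed across lines, not set against the other symbols, and the panels show VAV3 and NFATC2 under the dashed line in SUP-T1 with their relatives above it, UBASH3B under it in MOLT-14, and SYK high in LOUCY.

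The series was designed to compare NKL-positive with NKL-negative lines, and for this 5 NKL-positive lines without JURKAT were set against the 5 NKL-negative lines. None of the 34 transducers was called by limma at an adjusted p under 0.05, where 0.00916% of all probe sets were, and the smallest adjusted p of a transducer by limma was 0.916. At an unadjusted p under 0.05 in limma 3 of the 34 (8.82%) passed, beside 5.26% of all genes, so their share is to be read against that background. No transducer separated the groups without overlap, where 0.379% of all genes were higher in every NKL-positive line and 0.526% lower. The median difference of the transducers was 0.02, with 20 higher and 14 lower in NKL-positive lines, beside a median of -0.002 over all genes. Their median absolute difference was 0.36 against 0.23 over all genes.

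The transducers with the largest positive differences were PTPN6, NFATC2, VAV3, RASGRP1, TEC and MALT1, and all of these but TEC had a lost or dropped value in at least 1 NKL-negative line. PTPN6 averaged 10.01 ± 0.70 (SD, n = 5) in NKL-positive and 8.31 ± 1.24 (SD, n = 5) in NKL-negative lines, a difference of 1.70 with an SE of 0.57 (limma, unadjusted p = 0.013, adjusted p = 0.97). TEC differed by 1.12 with an SE of 0.34 (limma, unadjusted p = 0.00768), with 5.03 to 6.44 in NKL-positive and 3.51 to 5.10 in NKL-negative lines, and thus close to background. CD6 was the remaining gene under 0.05, at 0.44 with an SE of 0.19 (limma, unadjusted p = 0.0362). JURKAT, outside the comparison, read 9.42 for PTPN6, inside the NKL-positive range, but 4.08 for TEC, under it.

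Several of these differences changed in size when a line was left out. NFATC2 averaged 8.07 ± 0.49 (SD, n = 5) in NKL-positive and 6.42 ± 2.14 (SD, n = 5) in NKL-negative lines, a difference of 1.65 with an SE of 0.87, which became 1.05 without SUP-T1 and 2.34 without MOLT-16. VAV3 differed by 1.60 with an SE of 1.03, and by 0.62 without SUP-T1. MALT1 differed by 1.04 with an SE of 0.56, and by 0.47 without MOLT-4. RASGRP1 differed by 1.18 with an SE of 0.67, and by at least 0.86 with any line left out. In the lines with poly-A signal alone, 4 NKL-positive and 3 NKL-negative, NFATC2 reached 2.97 with an adjusted p of 0.186 by limma, the smallest of all its alternatives.

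The largest negative differences were smaller. PTPRC differed by -0.996 with an SE of 0.74, LAT by -0.82 with 0.46, FYN by -0.63 with 0.50, PLCG1 by -0.55 with 0.26, SH2D2A by -0.49 with 0.58 and UBASH3A by -0.42 with 0.996. None of these passed the test. PTPRC became -0.44 without HPB-ALL, -0.51 without MOLT-16 and 0.08 in the lines with poly-A signal alone. FYN became -0.30 without CML-T1 and -0.32 without PEER, and LAT -0.51 without MOLT-16. UBASH3A became -1.49 without SUP-T1, where the remaining 4 NKL-negative lines (8.04 to 9.23) lay above all NKL-positive lines (at most 7.79). Without SUP-T1, 1.86% of all genes had groups that did not overlap. SH2D2A became -0.009 without MOLT-16. Among the roles, MALT1 alone of the NF-kappaB arm differed by more than its SE, since PRKCQ (0.10 with 0.48) and BCL10 (0.01 with 0.28) were close to 0 and turned to -0.02 and -0.01 with JURKAT included. Of the restraining genes 3 of 4 were higher in NKL-positive lines, with a median of 0.22. The calcium arm was split, 2 higher and 4 lower, as were kinases (2 and 2) and adaptors (3 and 3), and effectors (4 and 2) and co-receptors (3 and 2) likewise held both directions.

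**Figure D4:**
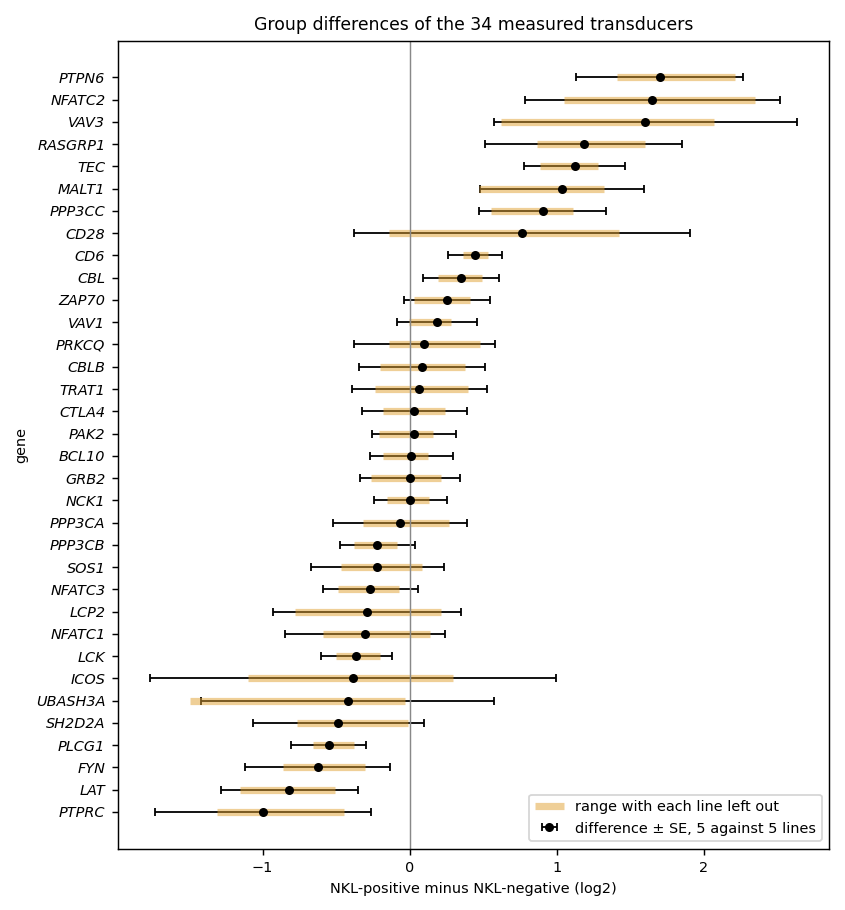
Mean difference between 5 NKL-positive and 5 NKL-negative lines on the log2 scale for each of the 34 transducers (points, bars show the SE), with a band for the range of the difference when each line is left out in turn. PTPN6, at 1.70, is the highest and PTPRC, at -0.996, the lowest, and the band of VAV3 reaches down to 0.62.

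Outside the transducers, 62 of 75 further genes of the pathway were measured, of which 12 had a loss and 15 a gain in some line, beside 7.1% and 11.5% of all genes. None was called by limma after adjustment. At an unadjusted p under 0.05 in limma 5 of the 62 passed, beside 5.26% of all genes, and are to be read against that background. They were SIT1 (1.21 higher in NKL-positive lines), NFKB1 (1.49 higher), AKT1 (0.56 higher), PDPK1 (-0.51) and EGR1 (-2.66). The membrane adaptor PAG1, which anchors the LCK inhibitor CSK, read 3.12 in SUP-T1 and 4.54 in ALL-SIL against 6.47 to 10.65 elsewhere, and the inhibitory adaptor SLA2 was lost in SUP-T1 at 4.44. THEMIS, a T-cell adaptor of thymocyte selection, was lost in LOUCY alone, at 2.92 against 5.10 to 10.79. SKAP1, an adaptor of integrin activation, was lost in ALL-SIL, HPB-ALL, LOUCY and MOLT-14 (3.85 to 4.44). It was a gain in CCRF-CEM, PEER, CML-T1, MOLT-16 and JURKAT (7.98 to 9.86), and read 4.84 in MOLT-4 and 6.44 in SUP-T1. Among the surface genes, CD2 was lost in PEER and CML-T1, CD4 in MOLT-16, CD8A in LOUCY, and CD8B in LOUCY, CML-T1 and JURKAT. The other genes with a loss were DOK2 in MOLT-4 and MOLT-14, CD69 in ALL-SIL, EGR1 in ALL-SIL and CCRF-CEM, and UBASH3B as above.

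By role, the pathway genes with the smallest p-values showed no arm that moved as a whole, and none of the differences below passed the test after adjustment, the smallest adjusted p by limma being 0.839 for SIT1. In the receptor list 4 of 10 genes were higher in NKL-positive lines, among them CD4 by 1.42, CD5 by 0.33 and CD3E by 0.28, while TRBC1 differed by -0.59. Of 19 kinases and adaptors 12 were higher, including the adaptor SHC1 by 0.77. Of 8 calcium and lipid genes 4 were higher, with STIM1, the calcium sensor of the endoplasmic reticulum, at 0.63, the inositol trisphosphate receptors ITPR2 at 0.75 and ITPR3 at 0.16, and the diacylglycerol kinase DGKA at -0.67. Of 8 RAS-MAPK genes 6 were higher, including MAP2K1 by 0.50 and HRAS by 0.30, whereas FOS differed by -0.87 and SOS2 by -0.18. Of 7 NF-kappaB genes 5 were higher, including the inhibitor NFKBIA by 0.49, the deubiquitinase TNFAIP3 by 0.47 and RELA by 0.18. Of 10 inhibitors and targets 4 were higher, with UBASH3B at 2.35, IL2RA at -0.69 and CD69 at -1.32. Over all 62 genes 35 were higher and 27 lower, with a median of 0.09.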

How the data were processed

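Total RNA of 11 T-ALL cell lines was measured on HG U133 Plus 2.0 arrays, 1 per line. The deposited log2 values, with 2 decimals, had been processed by the authors with RMA (background subtraction, a common distribution for all arrays and 1 value per probe set), and the labels also name affy and limma. They were used without further scaling. Precision is limited by the number of arrays, and p-values measure the spread between lines.

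The 62 control probe sets were left out, leaving 54613. Of these, 41091 carry 1 symbol in the array annotation, 1801 several and 11721 none. All 34 measured transducers matched the RefSeq table. Groups were compared with limma 3.58.1 in R 4.3.3 (lmFit and eBayes, no covariates), with Benjamini-Hochberg adjustment over all probe sets at 0.05. The fit was tested on simulated data. Named in full were the transducers with a loss or gain, the 6 with the largest mean difference each way, paralogues of lost genes, and pathway genes with a loss or the smallest p-values. The members, lists and rules were chosen with earlier results of these data known. Alternatives were all 11 lines, each line left out, only the lines with poly-A controls or a term for them, centring, quantile normalization, the mean over probe sets, a filter on dim probe sets, array weights, an intensity trend, low values raised to the 25th percentile, and other limits for losses and gains.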

Additional observations from a re-analysis of the deposited data

Results flagged for a closer look

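Dixon's test was applied to the 34 transducers within each group, 68 sets of values in all, and marked a line as lying apart from its group in 4 of them, where chance marks about 1 in 20 sets. SUP-T1 lay below the other NKL-negative lines for VAV3, at 3.73 with the nearest line at 8.24, and for UBASH3A, at 3.39 with the nearest at 8.04. Among the 6 NKL-positive lines, LOUCY lay above the others for VAV1, at 9.47 with the nearest at 8.84, and HPB-ALL below them for NFATC3, at 8.63 with the nearest at 9.32. The latter pair are small differences in genes that are above the array median in every line, and HPB-ALL is among the lines without poly-A signal.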

How the results depend on the processing

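The count of 6 losses was the same with a gap of 3 log2 units, after centring, after quantile normalization and with the mean over probe sets. It was 5 in the lines with poly-A controls alone, which leave out CML-T1, and 4 where every probe set above background had to meet the rule, which MALT1 and NFATC2 did not. It rose to 11 with a gap of 1 and fell to 1, UBASH3A in SUP-T1, where the value had to lie under the 25th percentile of the array. The 8 gains became 36 with a gap of 1, 4 with a gap of 3 (ICOS in its 4 lines) and 4 in the lines with poly-A controls alone. No transducer was called by limma under any of 20 alternatives. Transducers without overlap between the groups numbered 0, beside 0.905% of all genes, but 1 after centring (TEC), beside 0.86%. With each line left out they numbered 0 to 2, beside 1.45% to 2.28% of all genes. They were CD6 and UBASH3A without SUP-T1, PTPN6 without MOLT-16, and TEC without HPB-ALL or MOLT-14. In the lines with poly-A controls alone they numbered 5 (TEC, NFATC2, PPP3CC, PTPN6 and PLCG1), beside 7.88% of all genes. The median difference ranged from -0.06 to 0.12 with each line left out and from -0.03 to 0.28 otherwise. Of 320 recomputed differences of 16 named transducers, 308 kept their direction and side of the threshold and 12 reversed, and 11 transducers had no reversal. In the lines with poly-A controls alone the difference was -0.31 for CD28, 0.69 for ICOS, 0.72 for LCP2, 0.08 for PTPRC and 0.57 for UBASH3A, and with array weights ICOS came to 0.068. With each line left out CD28 ranged from -0.14 to 1.43, ICOS from -1.10 to 0.30 and LCP2 from -0.78 to 0.21. The cause of these shifts was not tested. No paired analysis was possible because no line belongs to both groups.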
